A study of Mus musculus with 8 samples.

Results

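The translation initiation and elongation factors were taken as all genes whose annotated symbol starts with Eif or Eef. The array's annotation held 45 such genes on 68 probes, 36 named Eif and 9 named Eef. Of these, 42 (33 Eif and 9 Eef) were measured on 3 or more arrays in each condition and entered the test, among 14015 features tested in all. The genes were followed in the mouse embryonic stem (ES) cell lines HM-1 and R1 on 8 two-colour cDNA microarrays. On each of 4 arrays untreated HM-1 cells were set against untreated R1 cells, and on each of 4 more both lines had been given nocodazole (Nocodazol in the labels), which takes microtubules apart so that dividing cells stop in mitosis. Dose, duration, sex, passage and feeder conditions were not given in the sources used here. Both are established lines, and HM-1 lacks Hprt.

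Initiation begins when a ternary complex of eIF2, GTP and initiator tRNA joins the small ribosomal subunit, held together by the large scaffold eIF3, while the cap-binding protein eIF4E, the scaffold eIF4G and the helicase eIF4A bring in the mRNA. The exchange factor eIF2B then recharges eIF2 with GTP, a step that stress kinases block by phosphorylating eIF2, and the 4E-binding proteins block eIF4E when TOR signalling is low. In elongation eEF1A delivers each aminoacyl-tRNA, the eEF1B subunits recharge eEF1A, and eEF2 moves the ribosome along. ES cells are known for low protein synthesis that increases when they differentiate, and cap-dependent initiation is known to slow in mitosis.

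Values are log2 ratios between the lines with the sign of the deposited table. The direction is not settled: no line is called higher, and the fit with the 3 arrays of HM-1 in Cy3 (untreated replicates 3 and 4, nocodazole replicate 4) turned in sign is given as the turned reading. HM-1 carried Cy5 on the other 5 arrays. Since treated and untreated cells of a line shared no array, a change between conditions is a change of the line ratio and no effect of the drug within a line. In such bulk samples, fewer cells of a type and less RNA per cell cannot be told apart. Arrays held between 17759 and 19342 values of 20355 probes, and the number of arrays limits the precision. The standard deviation (SD) over features was 1.10 on nocodazole replicate 3 and between 0.58 and 0.77 on the others. The labels' protocols speak of organs and of a pool from control animals, which the channel labels do not match. Nothing says that the replicates were separate cultures, and the spread that the p-values measure may then be technical. A table of ratios gives no levels, so the identity of the cells could not be checked against the level of their markers.

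No initiation or elongation factor differed between the lines past the threshold, an adjusted p of 0.05 in limma with Benjamini-Hochberg adjustment over all features. The count was 0 of 42 in untreated cells, 0 with nocodazole, 0 for the mean of both conditions and 0 for the change, and 0% of all features passed in each. The smallest adjusted p among the members was 0.665, 0.999, 0.897 and 0.996 in that order, against 0.422, 0.0638, 0.189 and 0.137 over all features. At an unadjusted p under 0.05 the limma fit held 5 of 42 members in untreated cells (11.9%, against 6.34% of all features). They were the eIF2 kinase Eif2ak2 and the eIF4G-like factor Eif4g2 on the positive side, and Eif2b1, Eif2b5 and Eif2d on the negative side. With nocodazole it held 0 members (2.89% of all features). The mean held 3 members, Eif2b1, Eif2b5 and Eif2d (7.14%, against 5.53%), and the change held Eif2ak2, Eif4g2 and Eif2b5 (7.14%, against 3.32%).

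As a whole the factors lay close to the bulk of the array. Their median ratio was -0.03 in untreated cells (25 negative, 17 positive) and 0.0016 with nocodazole (21 and 21), against -0.0047 and -0.0056 over all features. The median change was 0.05, with 26 members positive, against -0.0018 over all features, and in the turned reading it was -0.09 with 15 positive. The SD of a member over the 8 arrays had a median of 0.42, equal to that of all features (0.42), but ran from 0.09 for Eif3h to 1.52 for Eif2b3. It was under 0.3 for 17 of 42 members, against 5101 of all 14015 features tested. It was over 1 for 3 of 42 members, Eif2b3, Eif3k and Eif3c, against 2511 of 14015 features. An SD over 1 was thus less common among the members than over all features.

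**Figure D1:**
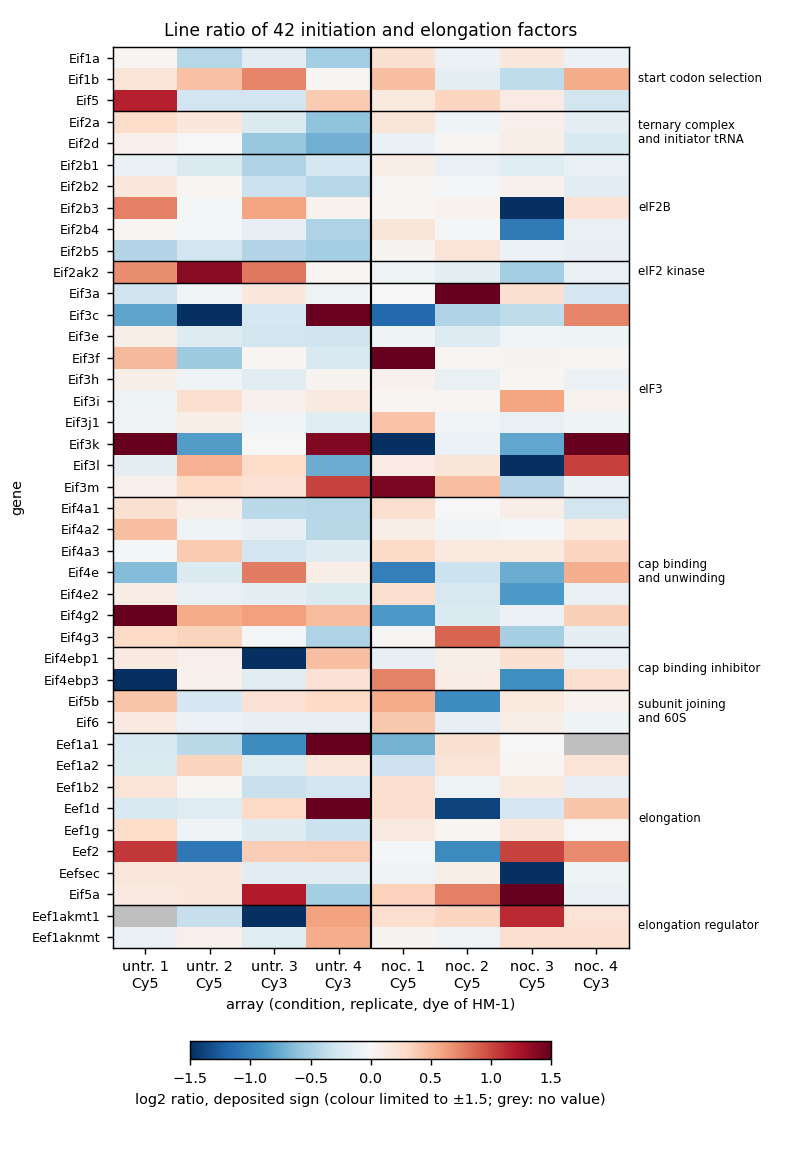
Line ratio (colour, log2, deposited sign, limited to 1.5 either way) of the 42 tested factors (rows, by role) on each of the 8 arrays (columns, with the dye of HM-1). Most cells are pale, and Eif2b5, Eif2ak2 and Eif4g2 are the rows whose untreated and nocodazole arrays do not overlap. For Eif2ak2 this holds for the average of its 2 probes and not for the probe present on all arrays.

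The exchange factor eIF2B has a catalytic epsilon subunit, Eif2b5, and a regulatory alpha subunit, Eif2b1, which helps it to sense phosphorylated eIF2. All 5 subunits had a fitted mean ratio below 0, with a median of -0.21 and a range from -0.22 to -0.13. In untreated cells 4 of 5 were negative, with a median of -0.15, and with nocodazole 5 of 5, with a median of -0.11. Without nocodazole replicate 3 the latter was -0.02 with 3 of 5 negative, and in the turned reading 0.07 with 2 of 5 negative. Array by array the sign was mixed: the median of the 5 subunits on untreated replicates 1 to 4 was 0.01, -0.04, -0.32 and -0.43. In the turned reading the untreated values were positive for all 5 subunits (median 0.10), so the common sign of the complex rests on the deposited direction.

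Eif2b5 had the smallest SD between untreated arrays relative to its mean of the 42 tested members. Its ratios were -0.44, -0.28, -0.44 and -0.51 on untreated replicates 1 to 4, and 0.04, 0.20, -0.09 and -0.12 on nocodazole replicates 1 to 4. All untreated arrays were low whatever the dye, the nocodazole arrays lay on both sides of 0, and the groups did not overlap. The means were -0.42 ± 0.10 and 0.0077 ± 0.15 (SD, n = 4 each), and the limma estimates were -0.42 (SE 0.09, adjusted p = 0.665) in untreated cells and 0.39 (SE 0.13, adjusted p = 0.996) for the change. In the turned reading the untreated value was 0.06, and the change 0.14. With limma's robust fit, which gives less weight to stray arrays, Eif2b5 passed the threshold in untreated cells at an adjusted p of 0.0257, as did Eif4g2 at 0.0498, which makes 2 of 42 members against 2.03% of all features. Over the alternatives with the deposited sign the adjusted p in limma ran from 0.0257 to 0.994 for Eif2b5 and from 0.0498 to 0.994 for Eif4g2.

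The other subunits were less even. Eif2b1 was at -0.10, -0.22, -0.46 and -0.27 untreated and at 0.10, -0.11, -0.18 and -0.10 with nocodazole, so that it was negative on 7 of 8 arrays and the groups overlapped. Its limma estimate in untreated cells was -0.26 (SE 0.09, adjusted p = 0.758). Eif2b3, the gamma subunit, had 0.76, -0.04, 0.59 and 0.05 untreated and 0.03, 0.05, -3.98 and 0.21 with nocodazole. A single array, nocodazole replicate 3, set its negative mean. Eif2b4, the delta subunit, was lowest on the same array, at -1.06. Without nocodazole replicate 3 the median mean ratio of the complex was -0.13, with 4 of 5 subunits negative.

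The start regions of the members singled out in untreated cells are given so that they can be compared (RefSeq, GRCm38.p6, 30 bases before and 30 from the annotated start, in the direction of transcription). Capitals mark pyrimidines at the start, counted from the first C within 5 bases of it that is followed by at least 4 bases that are C or T, as found at the start of mRNAs controlled by TOR, or GAAA followed after any 2 bases by GAAA, which resembles an interferon response element. In Eif2b5 the pyrimidines reach further upstream than the capitals. The region of Eif2b5 lies at chr16:20498787-20498846 on the + strand, that of Eif2b1 at chr5:124579102-124579161 on the - strand, that of Eif2d at chr1:131153177-131153236 on the + strand and that of Eif2ak2 at chr17:78882543-78882602 on the - strand. For Eif4g2 the table had no entry.
Eif2b5: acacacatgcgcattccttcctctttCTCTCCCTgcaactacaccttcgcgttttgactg
Eif2b1: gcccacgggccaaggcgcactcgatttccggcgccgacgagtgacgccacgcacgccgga
Eif2d: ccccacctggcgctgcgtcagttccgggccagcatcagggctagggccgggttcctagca
Eif2ak2: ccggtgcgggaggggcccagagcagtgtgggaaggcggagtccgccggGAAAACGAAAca
Such a C within 5 bases of the start, in the direction of transcription, was present in 7 of the 33 members with a promoter in the table (21.2%) and in 21.2% of 27025 genes. The 5 tested members with a run (Eef1a1, Eif2b2, Eif2b5, Eif3f and Eif3l) had untreated values from -0.42 to -0.0024 and a median of -0.06, and the 25 without one had a median of 0.0005. The paired GAAA, searched on both strands over the whole promoter entry, was present in 3 members, Eif2ak2, Eif2s3x and Eif3a (9.09%, against 3.99% of genes). A match on the other strand can overlap a pyrimidine run. These matches describe letters in the reference and no binding.

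Eif2ak2 encodes PKR, the kinase that phosphorylates eIF2 when double-stranded RNA is present and that interferon induces. Its ratios were 0.70, 1.36, 0.79 and 0.04 untreated and -0.08, -0.13, -0.51 and -0.11 with nocodazole. Every untreated array lay above every nocodazole array, though untreated replicate 4 only by a small margin. The means were 0.72 ± 0.54 and -0.21 ± 0.20 (SD, n = 4 each), and the limma estimates were 0.72 (SE 0.20, adjusted p = 0.711) in untreated cells and -1.0 (SE 0.29, adjusted p = 0.996) for the change. In the turned reading they were 0.31 and -0.63.

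The value of Eif2ak2 rests on 1 of its 2 probes. The probe with a value on all 8 arrays was at 0.12, 0.07, 0.23 and 0.04 untreated and at -0.18, -0.13, 0.30 and -0.11 with nocodazole. The other probe had 5 values, 1.28, 2.65 and 1.35 on untreated replicates 1 to 3 and 0.02 and -1.31 on nocodazole replicates 1 and 3. The first probe stayed near 0 throughout, so the high untreated arrays come from the second. With the first probe alone the limma estimate was 0.12 in untreated cells and -0.15 for the change.

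Eif2d, which can bring initiator tRNA to the ribosome without GTP, was at 0.08, 0.003, -0.57 and -0.72 untreated and at -0.10, 0.01, 0.10 and -0.23 with nocodazole. Its 3 lowest arrays were the 3 with HM-1 in Cy3. The mean was -0.30 ± 0.40 untreated and -0.06 ± 0.14 with nocodazole (SD, n = 4 each), the limma estimate in untreated cells was -0.30 (SE 0.10, adjusted p = 0.758), and in the turned reading it was 0.34 (SE 0.10, adjusted p = 0.322). Eif2a, which also binds initiator tRNA, had its lowest arrays in the same dye orientation, at -0.20 and -0.60 untreated and -0.13 with nocodazole. Of eIF2 itself the gamma subunit Eif2s3x was analysed here but had too few values to be tested, with 0.73 and 0.93 on untreated replicates 2 and 3 and -0.21, -0.84, -1.68 and 0.27 with nocodazole. Its 2 untreated values were above all of its nocodazole values, but both are among the quotients of small integers described below.

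**Figure D2:**
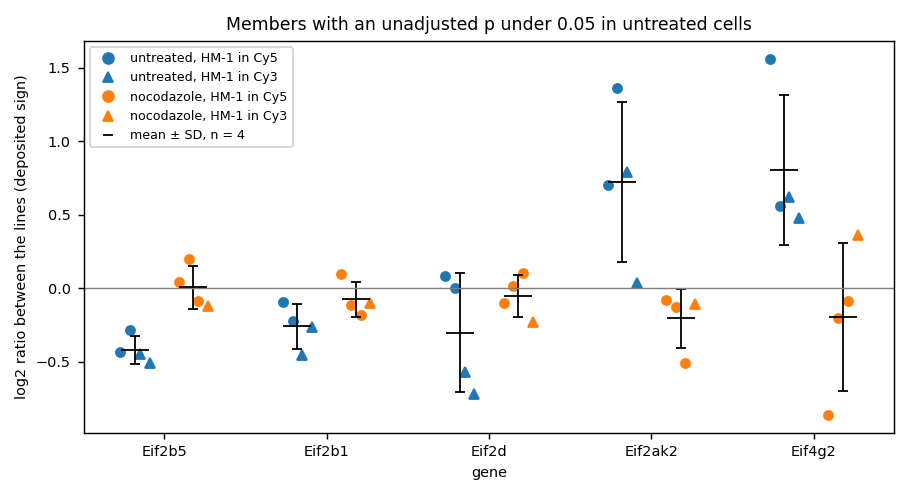
Line ratios (log2, deposited sign) of the 5 members with an unadjusted p under 0.05 in untreated cells, as points per array (blue untreated, orange nocodazole, circles HM-1 in Cy5, triangles HM-1 in Cy3) with mean and SD (n = 4). Eif2b5, Eif2ak2 (as the average of its 2 probes) and Eif4g2 show no overlap between conditions, while the low untreated points of Eif2d are the Cy3 arrays.

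Eif4g2 encodes DAP5, a relative of eIF4G that lacks the eIF4E-binding part, serves initiation without the cap and is known to be needed for ES cells to differentiate. Its ratios were 1.56, 0.56, 0.62 and 0.48 untreated and -0.86, -0.20, -0.08 and 0.36 with nocodazole. All untreated arrays were positive in both dye orientations and lay above all nocodazole arrays. The means were 0.80 ± 0.51 and -0.20 ± 0.50 (SD, n = 4 each). The limma estimate was 0.80 (SE 0.25, adjusted p = 0.758) in untreated cells and -0.99 (SE 0.37, adjusted p = 0.996) for the change. Without untreated replicate 1 these were 0.49 and -0.59, and in the turned reading 0.26 and -0.86.

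In untreated cells the other cap-binding and unwinding factors lay lower, while with nocodazole Eif4g2 was itself among the negative members (fitted value -0.19). The 7 tested members of this role, Eif4g2 included, had a median of -0.02 untreated and -0.11 with nocodazole, where 6 of 7 were negative. The latter ran from -0.22 (7 negative, without nocodazole replicate 4) to -0.0088 (5 negative, without nocodazole replicate 1) when an array was left out. It was 0.02 with 3 of 7 negative without the dye term, and in the turned reading the medians were 0.23 (1 negative) and -0.03 (4 negative), so no common sign of this role holds across these settings. The helicases Eif4a1, Eif4a2 and Eif4a3, put in this role by their symbols alone, had untreated values between -0.13 and -0.02. Eif4e, the cap-binding protein, was at -0.65, -0.21, 0.78 and 0.10 untreated and at -1.02, -0.33, -0.74 and 0.55 with nocodazole. Its positive arrays were exactly the 3 with HM-1 in Cy3, and its fitted value in untreated cells was 0.0046 (SE 0.17). Eif4ebp1, the TOR-controlled inhibitor of eIF4E, was at 0.13, 0.08, -1.61 and 0.45 untreated and at -0.12, 0.09, 0.23 and -0.10 with nocodazole. Untreated replicate 3 stood apart, and the other 7 arrays lay between -0.12 and 0.45. The -1.61 averages -3.24 on a probe with 3 values and 0.02 on the probe present on all arrays, and with the latter alone the fitted untreated value was 0.17 in place of -0.24.

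The scaffold eIF3 had 10 tested subunits of 11 annotated. Their median was -0.04 untreated (7 negative) and 0.14 with nocodazole (8 positive), and without nocodazole replicate 1 the latter was 0.01 with 6 positive. Without untreated replicate 2 the untreated median was 0.0030 with 4 negative, and in the turned reading the medians were 0.01 (5 negative, 5 positive) and 0.06 (7 positive). Several subunits were even and near 0: Eif3h lay between -0.17 and 0.08 over all arrays and Eif3e between -0.29 and 0.08. Others varied widely. Eif3k was at 1.55, -0.83, -0.005 and 1.39 untreated and at -1.52, -0.09, -0.78 and 2.29 with nocodazole, and Eif3c at -0.80, -2.09, -0.26 and 1.49 untreated and -1.17, -0.46, -0.38 and 0.74 with nocodazole. In both, the groups overlapped over most of their range, and nocodazole replicate 4 was the only positive nocodazole array. The 2 probes of Eif3k disagreed there, at 4.131 and 0.455. With the probe present on all arrays alone, its fitted nocodazole value was -0.37 in place of 0.36. Its change was then -1.12 in place of -0.17. Eif3a was at -0.30, -0.04, 0.16 and -0.08 untreated and at 0.01, 2.50, 0.22 and -0.25 with nocodazole, where replicate 2 alone was high. Of its 2 probes only 1 was high there, at 5.28 against -0.29 on the other. Eif3m was at 0.08, 0.30, 0.21 and 1.01 untreated, all positive, and at 1.42, 0.45, -0.44 and -0.10 with nocodazole, on both sides of 0. Eif3b, which had too few values to be tested, was at 0.05 and 0.73 untreated and at -2.80, 0.35 and 3.53 with nocodazole.

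Of the factors that select the start codon, Eif1b was positive on all untreated arrays (0.02 to 0.73) and on both sides of 0 with nocodazole (-0.38 to 0.56). Eif1a, the partner that keeps the scanning ribosome open, lay between -0.51 and 0.03 untreated. The X-linked Eif1ax had 5 values and was not tested: -0.84, -2.65 and 0.18 untreated and 0.73 and -0.24 with nocodazole. Eif5b, the GTPase that joins the subunits, lay between -0.94 and 0.55 over all arrays. Eif6, which keeps the large subunit from joining too early, was at 0.13, -0.08, -0.12 and -0.12 untreated and at 0.41, -0.12, 0.09 and -0.07 with nocodazole. It was among the steadiest members, and its groups overlapped.

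The 8 elongation factors had a median of 0.01 untreated (3 negative, 5 positive) and 0.03 with nocodazole (2 and 6). With the Cy3 arrays turned the medians were -0.03 (4 and 4) and -0.13 (5 and 3), and without untreated replicate 1 the untreated median was -0.06 (5 and 3), so the sign depends on these settings. Eef1a1, the main eEF1A, was at -0.23, -0.41, -0.95 and 1.57 untreated and at -0.71, 0.23 and 0.01 on nocodazole replicates 1 to 3. Untreated replicate 4 alone was far above the others. That value came from 1 of its 2 probes, as the other had none there, and is among the quotients of small integers described below. With the probe of more values alone, the fitted untreated value of Eef1a1 was -0.32 in place of -0.0024. Eef1a2, the form of muscle and neurons, was at -0.22, 0.34, -0.18 and 0.17 untreated and at -0.31, 0.20, 0.03 and 0.21 with nocodazole, with full overlap. Near-identical sequences such as these paralogs can share signal on cDNA probes, which was not tested.

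Eef2, the translocase, was at 1.06, -1.07, 0.37 and 0.38 untreated and at -0.02, -0.95, 1.01 and 0.71 with nocodazole. Replicate 2 was the lowest array in both conditions, and the groups overlapped over their whole range. With the probe present on all arrays alone, its fitted untreated value was -0.23 in place of 0.19. Eif5a, the hypusine-bearing factor that helps ribosomes past difficult peptide bonds, was at 0.14, 0.16, 1.19 and -0.50 untreated and at 0.34, 0.75, 1.54 and -0.10 with nocodazole, with a mean fitted ratio of 0.40 that was among the highest of the members. It was positive on 6 of 8 arrays and negative on replicate 4 of both conditions. The high values came from a probe with 5 values (up to 2.67 untreated and 2.995 with nocodazole). With the probe present on all arrays the mean ratio was -0.13, and in the turned reading of the average it was 0.21. Eefsec, which delivers selenocysteine, was within 0.17 of 0 on 7 arrays and at -1.74 on nocodazole replicate 3. Of its 2 probes only 1 was low there, at -3.41 against -0.06 on the other. Eef1akmt1, a methyltransferase of eEF1A, was at -0.34, -1.65 and 0.60 on untreated replicates 2 to 4 and at 0.25, 0.32, 1.12 and 0.20 with nocodazole, where all arrays were positive.

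Signs were also counted array by array, without a model. On all 4 untreated arrays 2 of 41 members were negative (Eif2b1 and Eif2b5, against 7.18% of features) and 4 were positive (Eif1b, Eif2ak2, Eif3m and Eif4g2, against 6.53%). On all 4 nocodazole arrays 2 were negative (Eif2ak2 and Eif3e, against 3.96%) and 4 positive (Eef1akmt1, Eif3f, Eif3i and Eif4a3, against 6.09%). Complete separation of the conditions was seen in 3 of 40 members with all values (7.5%), Eif2ak2, Eif2b5 and Eif4g2, against 2.05% of features. For Eif2ak2 both its separation and its negative nocodazole arrays rest on the average of its 2 probes. On the probe with all 8 values, nocodazole replicate 3, at 0.299, lay above every untreated array (0.035 to 0.227). The limma fit of the change held the same 3 genes at an unadjusted p under 0.05. That fit was made on the same array values, so the overlap gives no separate support.

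More of the factors separated by dye than by condition, as did more of all features. For 5 of 40 members (12.5%) every array with HM-1 in Cy5 lay above every array with HM-1 in Cy3, against 7.72% of features: Eef1b2, Eif2a, Eif2b2, Eif2d and Eif4a1. For Eef1d, Eif3c and Eif4e (7.5%) every Cy5 array lay below every Cy3 array, against 3.93%. Eif4a1, the main helicase of the cap complex, was at 0.23, 0.10, 0.25, 0.0080 and 0.10 on the 5 Cy5 arrays and at -0.40, -0.42 and -0.28 on the 3 Cy3 arrays. The groups by dye lay apart by more than 0.2. The limma dye term held 6 of 42 members at an unadjusted p under 0.05 (14.3%, against 9.32%), and 0 members and 0% of features past the threshold.

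In the turned reading a ratio of dyes becomes a ratio of lines, so genes that split by dye come forward by construction. Their return there gives no separate support for the split. At an unadjusted p under 0.05, limma then held 6 members in untreated cells (14.3%, against 10.6% of features): Eif2a, Eif2b2, Eif2d, Eif3c, Eif4a1 and Eif4e. It held Eif3k and Eif4e with nocodazole (4.76%, against 5.11%), 9 members for the mean (21.4%, against 10.6%) and 0 for the change (against 4.89%). None passed the threshold, and the smallest adjusted p among members for the mean was 0.315, for Eif4e, at -0.54 (SE 0.12). A ratio that follows the dye and a line difference in arrays deposited as dye ratios cannot be told apart here.

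**Figure D3:**
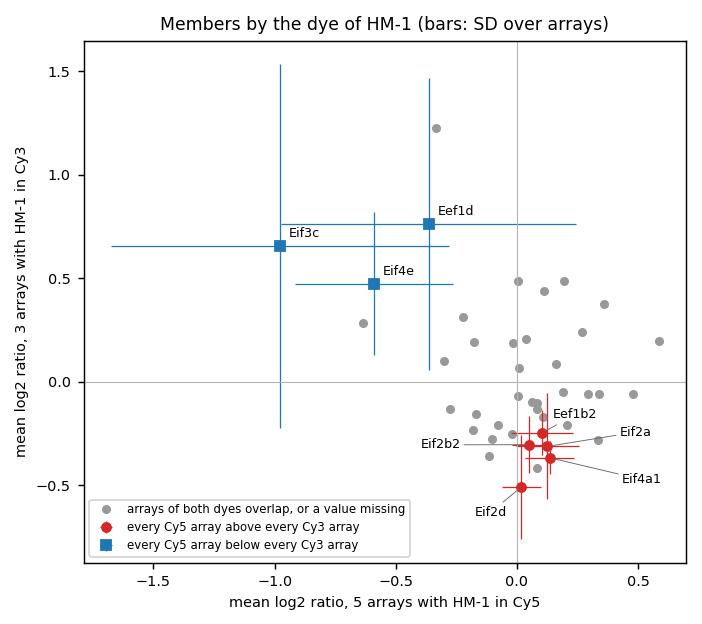
Mean log2 ratio of each tested factor on the 5 arrays with HM-1 in Cy5 (x axis) and on the 3 with HM-1 in Cy3 (y axis), with SD bars for the 8 members whose arrays separate completely by dye. The 5 red members lie above 0 on the x axis and below 0 on the y axis, and the 3 blue squares lie the other way.

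Probes of one gene often disagreed. Of the 15 tested members with several probes, Eif6 had a median SD between its 2 probes of 0.09, while Eif4e (4 probes) had 1.10, Eef2 (4 probes) 1.42 and Eef1d (3 probes) 1.55. The Eif4e probe present on all arrays was at 0.23, 0.09, -0.03 and 0.43 untreated and at 0.64, -0.20, -0.38 and 0.11 with nocodazole. It did not separate by dye, and the split of the averaged Eif4e came with a probe at -3.18, -1.44, -3.99 and -0.03 on 4 Cy5 arrays and at 1.42 and 1.86 on 2 Cy3 arrays.

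**Figure D4:**
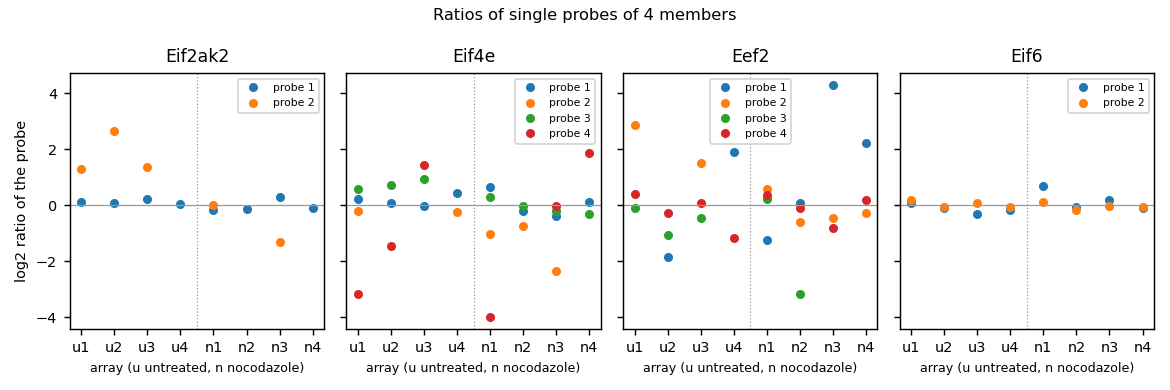
Log2 ratio of each probe (colours) of Eif2ak2, Eif4e, Eef2 and Eif6 on the 8 arrays (u untreated, n nocodazole). The 2 probes of Eif6 lie together, while those of the other 3 genes lie far apart on several arrays.

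Some of the members' ratios matched quotients of small integers, as counts of few units in each channel would give, though no intensities were at hand. Once the offset of an array was taken off, 15.2% of the 481 members' probe values matched the quotient of 2 integers from 1 to 10 to within 0.0015 (log2), against 14.6% of all values and 4.36% with the offset shifted by 0.01. Such values made up 10 of 15 for Eef1d, 7 of 26 for Eif4e and 3 of 5 for the second probe of Eif2ak2. For Eif2s3x they were 3 of 6, among them its 2 untreated values. They were 0 of 8 for Eif2b5 and Eif2d and 1 of 8 for Eif4g2 and Eif2b1. The 16 tested members with no such value had a median SD over arrays of 0.25, and the 8 members with at least 25% of them had 0.82. Their part in the ratios was not tested.

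The other genes of translation gave 61 tested genes, among them termination factors, poly(A) binders, TOR and stress-response genes and aminoacyl-tRNA synthetases. None passed the threshold in limma in any comparison, and their medians were -0.0089 untreated and -0.02 with nocodazole. At an unadjusted p under 0.05 the fit held 4 in untreated cells (6.56%, close to the 6.34% of all features), positive with the deposited sign: the release factor Etf1 (0.78), the TOR-controlled mRNA binder Larp1 (0.55) and the synthetases Aars (0.71) and Tars (0.61). Once the Cy3 arrays were turned it held 6 others (9.84%, against 10.6%): Iars, Nck1, Pelo, Rictor, Rps6kb2 and Tpt1. With the deposited sign it held 2 with nocodazole (3.28%, against 2.89%), 3 for the mean (4.92%, against 5.53%) and 4 for the change (6.56%, against 3.32%). In the turned reading these counts were 3 (4.92%, against 5.11%), 5 (8.2%, against 10.6%) and 2 (3.28%, against 4.89%). By list, the untreated medians with the deposited sign were -0.06 for termination and recycling (7 genes), 0.18 for poly(A) binding (3) and 0.08 for TOR and MAPK input (12). They were 0.09 for the integrated stress response (7), 0.38 for factor modification (2) and -0.09 for mitochondrial factors (4). For the synthetases with Aimp1 and Aimp2 (16) the median was -0.09, and for other controllers of mRNA (10) it was -0.07. Atf4, the transcription factor that eIF2 phosphorylation induces, had a fitted untreated value of 0.14 (SE 0.43, adjusted p = 1 in limma). With nocodazole the limma value was -0.93 (SE 0.45, adjusted p = 0.999), and for the change -1.07 (SE 0.62, adjusted p = 0.996). Atf4 was among the genes held at an unadjusted p under 0.05 in the turned reading, with nocodazole and for the change.

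Markers of cells that such cultures can hold were read beside these ratios. In untreated cells 5 of 6 ES cell markers tested were positive (median 0.15, array medians from -0.08 to 0.26), 8 of 10 fibroblast markers were negative (median -0.27, array medians from -0.28 to -0.03) and 6 of 8 primitive endoderm markers were negative (median -0.42, array medians from -0.59 to 0.06). With nocodazole the medians were -0.0070, -0.15 and -0.25, with array medians from -0.21 to 0.14, from -0.32 to 0.17 and from -0.40 to -0.02. In the turned reading the untreated medians were 0.12 (5 of 6 positive), 0.05 (4 of 10 negative) and 0.0095 (4 of 8 negative), so the sign of the fibroblast and endoderm lists depends on the direction. Their part in the ratios of Eif2b5, Eif2ak2 and Eif4g2 was not tested.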

How the data were processed

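Total RNA of HM-1 and R1 cells was labelled indirectly with Cy3 or Cy5 and hybridised together on 8 arrays, per the labels' protocols. The values are the authors' deposited log2 ratios, 1 per probe and array. How they were background-corrected and normalized, and with which software, is not given in the sources used here. Coded values (above 10 in absolute log2) were set to missing, probes of one symbol were averaged, and arrays were centred on their median. Symbols came from the platform annotation, which gave 14030 probes 1 symbol, 5 several and 6320 none, and 13994 probes matched the RefSeq gene table (GRCm38.p6).

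limma 3.58.1 in R 4.3.3 (lmFit, eBayes) was fitted over all 14015 features and 8 arrays with a term for the dye of HM-1, and was tested on simulated data. P-values are two-sided. Members whose values are given array by array, where measured, were those at an unadjusted p under 0.05, the 3 highest and 3 lowest of each comparison, and a set list of core factors, 19 in all, with Eif4a1 and the untested Eif1ax and Eif3b added after their values were seen. Members and lists were chosen with earlier results of these data known. The measure of whole-number ratios and the turned readings of the other gene lists and left-out arrays of the roles were added after the values were seen. In all, 19 alternatives were run.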

Additional observations from a re-analysis of the deposited data

Results flagged for a closer look

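In 10 of the 82 groups of 4 arrays examined, 1 array stood far from the other 3 by Dixon's criterion, or 12.2%, where chance gives about 1 in 20, or 4.1 groups, and where 8.81% of 25210 such groups over all features did. Nocodazole replicate 3 was that array in 5 of them (50%, against 36.1% over all features): Eif2b3 was at -3.98 there (others 0.03 to 0.21), Eefsec at -1.74 (others -0.07 to 0.09), Eif2ak2 at -0.51 (others -0.13 to -0.08), Eef1akmt1 at 1.12 (others 0.20 to 0.32) and Eif3i at 0.59 (others 0.03 to 0.05). This is also the array of widest spread, and for Eefsec and Eif2ak2 only 1 of the 2 averaged probes was low on it. Nocodazole replicate 1 stood apart for Eif3f, at 1.68 (others 0.03 to 0.05), and for Eif3j1, at 0.42 (others -0.11 to -0.04). Nocodazole replicate 2 stood apart for Eif3e, at -0.19 (others -0.06 to -0.04). Untreated replicate 1 stood apart for Eif4g2, at 1.56 (others 0.48 to 0.62), and for Eif6, at 0.13 (others -0.12 to -0.08). No cause was tested.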

How the results depend on the processing

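The count of members past the threshold was 0 in all 4 comparisons under all 19 alternatives, except that limma's robust fit gave 2 in untreated cells, Eif2b5 and Eif4g2. That fit called 285 features in untreated cells, 99 with nocodazole, 306 for the mean and 31 for the change, where the reported fit called 0 in each, and the cause was not tested. The median change over the members was -0.0859 with the Cy3 arrays turned, where 15 of 42 members changed the sign of their change; the cause was not tested. Leaving out an array gave medians between -0.06 and -0.02 in untreated cells and between -0.04 and 0.09 for the change, and the value below 0 came without nocodazole replicate 4. With the coded values kept, Eif2ak2 was at -3.18 with nocodazole. With the replicate block the median in untreated cells was -0.03 and 0 members passed. In that limma fit 2 of 42 members held an unadjusted p under 0.05 in place of 5. Over all 14015 features it was 1116 in place of 888, so the members fell while all features rose. Same-numbered arrays deviated together only weakly (r of 0.14, 0.04, -0.05 and 0.13), so the numbers were not taken as pairs. Of the untreated arrays 3 of 4 correlated best with their own number, replicate 2 only by 0.0375 against 0.0372. Untreated replicate 3 correlated best with nocodazole replicate 4 (r of 0.13), and both have HM-1 in Cy3. Of 353 alternative values of the named members per comparison, between 33 and 46 changed sign, and turning the Cy3 arrays took Eif2b5, called by the robust fit, from -0.42 to 0.06 in untreated cells.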

Other observations

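The list of cytosolic aminoacyl-tRNA synthetases, which charge tRNA, held 16 tested genes, among them Aimp1 and Aimp2, which are not synthetases. For the change of the line ratio, 3 of the 16 held an unadjusted p under 0.05 in limma (18.8%, against 3.32% of all features). None passed the threshold, and in the turned reading the count was 0. Tars, the threonine enzyme, was at 0.04, 0.59, 0.38 and 1.46 untreated and at -0.71, -0.94 and -0.76 on nocodazole replicates 1, 2 and 4. All its untreated arrays were positive and all its nocodazole arrays negative, and the fitted values were 0.61 and -0.74. This holds for the deposited sign: turned, untreated replicates 3 and 4 and nocodazole replicate 4 change sign. Aars, the alanine enzyme, was at 0.95, 1.47, 0.75 and -0.33 untreated and at 0.38, 0.34, -0.48 and -0.94 with nocodazole, where the groups overlapped. Iars, the isoleucine enzyme, was at -1.75, -0.36, 1.30 and 1.25 untreated and at 0.05, -0.26, -0.23 and 2.55 with nocodazole. Its 3 arrays with HM-1 in Cy3 were its 3 highest. These genes were looked at in detail after their values were seen, and any single probes behind their values were not compared.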
